A study of Rattus norvegicus with 14 samples.

Results

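The glycolytic enzymes described here are 10 genes that cover the route from glucose to lactate: Hk2, Gpi, Pfkp, Aldoa, Tpi1, Pgk1, Pgam1, Eno1, Pkm and Ldha. They were taken by symbol from the probe annotation, with no threshold on measured values but with earlier results of these data known, and where a gene had several probe sets, the one brightest on average (in log2) stands for it. Of the 10 genes, 9 had a probe set of their own, out of 9839 named genes and 17515 probe sets tested. The only probe set for Pkm is annotated to Pkm and to Pkm-ps20 together, so its signal may come from either. It is reported as shared and is not counted among the 9.

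RNA came from IEC-6, a commercially obtained, non-transformed line from the rat small intestine that is widely used as a model of crypt epithelium. All 4 groups were cultured for 72 h: DMSO, the solvent control; indomethacin at 100 µM, which blocks both cyclooxygenases; NS-398 at 100 µM, which prefers cyclooxygenase-2; and SC-560 at 1 µM, which prefers cyclooxygenase-1. The study set out to compare drugs that slow the migration of these cells, indomethacin and NS-398, with SC-560, which does not. There were 4 DMSO, 4 NS-398, 4 SC-560 and 2 indomethacin arrays, each a one-colour Affymetrix array of 1 RNA sample. Array labels carry a digit, 1 or 2, and on 8 of the 14 arrays also a suffix b, and the arrays with and without that suffix are treated below as separate label sets. Both indomethacin arrays carry the suffix, and what the suffix stands for is not given in the sources used here. According to the design text, cultures were pooled and each biological sample went onto 4 chips, whereas the labels give only 2 indomethacin arrays. Each group may thus hold as little as 1 biological sample. The p-values reflect array-to-array spread, which may be technical, and may say nothing about spread between cultures.

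Glycolysis splits glucose into pyruvate in the cytosol, spending ATP in its early steps and gaining it in its late ones, and lactate dehydrogenase then regenerates the NAD+ that the pathway consumes. Several of its genes are known targets of hypoxia-inducible factor, whose alpha subunit is degraded in oxygenated cells, and of Myc. In the intestinal epithelium, proliferating crypt cells are known for a high use of glycolysis, whereas mature enterocytes rely more on mitochondrial oxidation.

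The arrays were alike in overall signal, with a median of 97.8 to 118 over all probe sets and 49.7% to 52.4% of probe sets at a signal of 100 or more. The first principal component of the probe sets tested held 69.2% of the variance. The 3'/5' signal ratio of the actin control, which rises as RNA shortens, was 1.498 to 1.64 for arrays lacking the suffix against 1.22 to 1.34 for those carrying it. That of the Gapdh control overlapped, at 0.902 to 0.990 and 0.955 to 1.002 in the same order. Of 10 epithelial markers, 5 reached a signal of 100 on at least 2 arrays: Krt8 (2670 to 6893 over the 14 arrays), Cdh1 (2637 to 8412), Cdx2 (55.0 to 5314), Krt19 (44.8 to 766) and Vil1 (6.23 to 196). Krt18, Epcam, Cldn3, Cldn4 and Cldn7 stayed under 100 on every array. Mesenchymal genes were measured as well, with Vim at 21670 to 24954, Col1a1 at 10473 to 24195 and Dcn at 1000 to 9486, and 10 of 12 fibroblast and smooth muscle markers passed the filter. Thy1 and Pdgfrb stayed under 100 on every array, and Lum (1.88 to 271) and Pdgfra (1.99 to 161) were dim. Of 6 measured immune markers 2 passed the filter, Cd14 at 2871 to 4088 and Cd68 at 13.0 to 126, and Ptprc, Csf1r, Cd3e and Itgam stayed under 100. Of 4 endothelial markers 2 passed, Tek at 182 to 801 and Kdr at 2.26 to 164, and Pecam1 and Vwf stayed under 100.

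Promoter sequences are shown first for 5 enzymes, because the effect of NS-398 on Ldha, Pfkp, Gpi and Aldoa differed between the label sets and that on Tpi1 did not differ by the same test. The RefSeq promoter table (assembly GRCr8, windows of 300 bases around each start, mostly upstream) held 12 promoters for 9 of the 10 genes, including Pkm. Each sequence reads 5' to 3' on the gene's strand, and capitals mark ACGTG or GCGTG on either strand, the core of the hypoxia response element.
Ldha, chr1:106507842-106508141, plus strand: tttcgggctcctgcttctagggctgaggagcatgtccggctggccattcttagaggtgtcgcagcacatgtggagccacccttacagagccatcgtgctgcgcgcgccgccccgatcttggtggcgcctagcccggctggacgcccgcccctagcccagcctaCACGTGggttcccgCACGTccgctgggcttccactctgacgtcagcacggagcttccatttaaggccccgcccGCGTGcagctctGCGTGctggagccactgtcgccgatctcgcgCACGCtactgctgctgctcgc
Pfkp, chr17:68639563-68639862, plus strand: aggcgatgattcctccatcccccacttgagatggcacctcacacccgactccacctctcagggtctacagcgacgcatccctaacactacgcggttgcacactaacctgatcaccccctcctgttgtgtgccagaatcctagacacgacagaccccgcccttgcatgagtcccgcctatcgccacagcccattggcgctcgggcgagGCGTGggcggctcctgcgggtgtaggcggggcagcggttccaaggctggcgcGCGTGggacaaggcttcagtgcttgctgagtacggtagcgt
Gpi, chr1:95993212-95993511, minus strand: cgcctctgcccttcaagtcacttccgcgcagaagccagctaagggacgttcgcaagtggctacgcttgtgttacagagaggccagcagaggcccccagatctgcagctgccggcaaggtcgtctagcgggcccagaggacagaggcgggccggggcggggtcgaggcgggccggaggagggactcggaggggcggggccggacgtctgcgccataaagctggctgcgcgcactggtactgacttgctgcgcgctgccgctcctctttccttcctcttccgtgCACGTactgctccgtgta
Aldoa, chr1:190836728-190837027, minus strand, 1 of 3 starts: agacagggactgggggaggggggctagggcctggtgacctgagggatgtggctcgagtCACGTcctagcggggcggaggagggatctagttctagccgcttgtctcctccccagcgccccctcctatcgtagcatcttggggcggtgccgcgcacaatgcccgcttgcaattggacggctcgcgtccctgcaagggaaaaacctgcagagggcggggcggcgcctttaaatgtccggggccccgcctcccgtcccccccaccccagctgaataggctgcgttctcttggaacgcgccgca
Tpi1, chr4:159305039-159305338, minus strand: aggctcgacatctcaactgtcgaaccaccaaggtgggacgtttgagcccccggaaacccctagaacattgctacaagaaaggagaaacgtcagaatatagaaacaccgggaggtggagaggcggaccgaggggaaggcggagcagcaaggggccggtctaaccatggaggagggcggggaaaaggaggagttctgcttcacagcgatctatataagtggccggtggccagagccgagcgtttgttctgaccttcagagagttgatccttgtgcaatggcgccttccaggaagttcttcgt

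The Ldha window held 6 matches, counting both strands, so that its palindrome CACGTG counts once on each, and was the only one of the 12 with 3 or more. Among all 33469 promoters of the table, 8.15% held 3 or more, counted the same way. The Pfkp window held 2 matches, that of Gpi 1, the 3 windows of Aldoa 1, 0 and 0 (the one with a match is shown), and that of Tpi1 0. Among the windows not shown, Pgam1 held 2 and those of Eno1 1 and 2, although neither gene's set difference passed the test, and Hk2 and Pkm held 0. At least 1 match stood in 7 of the 12 member promoters, from 6 of 9 genes, against 41.6% of all promoters. The palindrome CACGTG, an E-box that Myc can bind and that also contains ACGTG, stood only in the Ldha window, against 6.42% of all promoters. These matches describe letters within this window and not bound sites.

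NS-398 raised all 9 glycolytic enzymes when both label sets were averaged. The median log2 change of the 9 was 0.28, against -0.01 for all probe sets tested, and each was called higher by limma at an adjusted p under 0.05. Across all probe sets 10.0% were called higher and 9.50% lower in this comparison. The changes were 0.18 to 0.85 on the scale of log2(signal + 50), on which the change of a dim probe set is understated. Hexokinase Hk2 had the largest of the 9 (0.85 ± 0.13, SE, adjusted p 2.46e-04), followed by Tpi1 (0.57 ± 0.04, adjusted p 1.54e-07) and Pfkp (0.48 ± 0.08, adjusted p 8.10e-04). Pgk1 had the smallest (0.18 ± 0.05, adjusted p 0.00893), and it was not called without DMSO array 2 (limma adjusted p 0.0506), after quantile normalization (0.111) or with no intensity trend (0.0731). With one set difference assumed for all groups, Gpi (limma adjusted p 0.0816) and Aldoa (0.0891) were not called, and with no term for the label set only Hk2 was. In RNA of a whole culture, more expressing cells and more RNA per cell cannot be told apart.

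**Figure D1:**
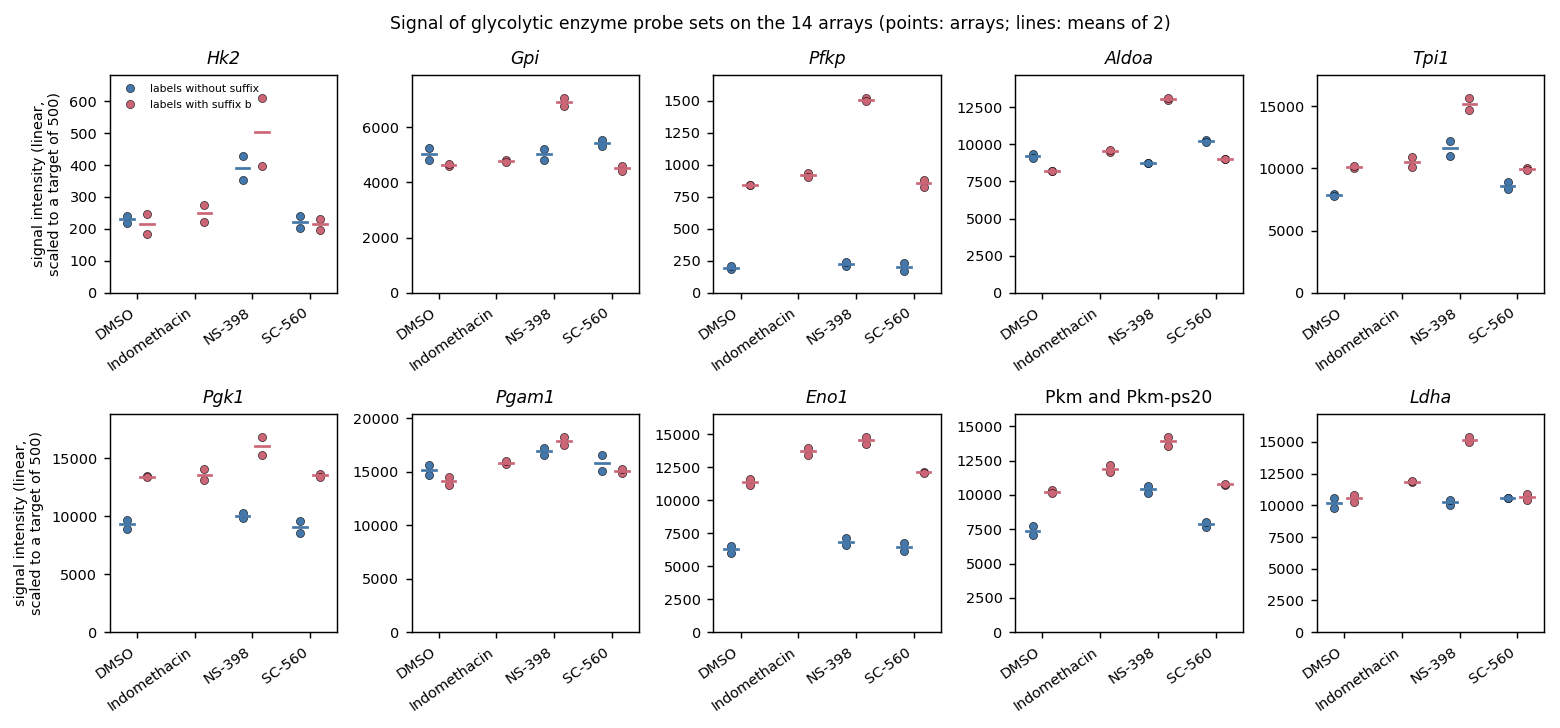
Signal intensity (linear, scaled to a target of 500) of the probe sets of 9 glycolytic enzymes and of the probe set shared by Pkm and Pkm-ps20, by group; each point is 1 array, coloured by label set, and short lines are means of 2 arrays. The suffix-b NS-398 arrays of Aldoa, at 12962 and 13122, lie above all its other arrays, whereas the NS-398 arrays of Tpi1 lie above the DMSO arrays in both sets.

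The average hid a difference between the label sets. In the set with the suffix b, NS-398 raised 9 of 9 enzymes, with a median log2 change of 0.57 against -0.01 for all probe sets. The background in that comparison was 7.71% of probe sets called higher and 6.99% lower. In the set without the suffix, 2 of 9 enzymes, Hk2 and Tpi1, were called higher and none lower, with a median of 0.13 against -0.00 for all probe sets, and the background was 6.13% higher and 5.81% lower. All 9 changes were larger in the suffix-b set, as were 8676 of the 17515 probe sets tested. The difference between the sets itself passed the test for 4 of 9 enzymes, all larger in the suffix-b set, against 3.23% of probe sets larger there and 2.86% smaller.

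At the entry of the pathway, hexokinase 2 traps glucose in the cell as glucose phosphate. Without the suffix, Hk2 signals were 219.9 and 239 under DMSO and 353 and 429.8 under NS-398, and 185 and 246 against 396 and 610.0 with it. NS-398 arrays lay above the DMSO arrays in both sets. The log2 change was 0.65 ± 0.18 without the suffix (limma adjusted p 0.0285) and 1.04 ± 0.18 with it (limma adjusted p 0.00110). The difference between the sets was 0.39, with a 95% confidence interval of -0.16 to 0.93. The call without the suffix was lost when any of the 4 DMSO or NS-398 arrays of that set was left out, with limma adjusted p of 0.139 and 0.0906 without DMSO arrays 1 and 2 and 0.0537 and 0.211 without NS-398 arrays 1 and 2. It was also lost with no filter on low signals (limma adjusted p 0.0725) and with no intensity trend (0.0636).

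Gpi, glucose phosphate isomerase, converts glucose phosphate to fructose phosphate. Its DMSO signals of 5256 and 4821 and NS-398 signals of 4822 and 5194 overlapped without the suffix, and the change was -0.01 ± 0.06 (limma adjusted p 0.948). With the suffix they were 4595 and 4677 against 7054 and 6769.6, a rise of 0.57 ± 0.06 (limma adjusted p 1.24e-05). The sets differed by 0.58 ± 0.08 (limma adjusted p 7.73e-04).

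Pfkp, the platelet-type phosphofructokinase, catalyses the committed step of the pathway. It was dim without the suffix, at 186 and 208 under DMSO and 207 and 240.1 under NS-398, which overlapped (0.15 ± 0.12, limma adjusted p 0.473). The suffix-b arrays were brighter, at 842.0 and 841.5 under DMSO and 1522 and 1494 under NS-398 (0.81 ± 0.12, limma adjusted p 2.71e-04). Its DMSO mean was thus 4.28 times as high with the suffix as without, the widest such gap among the 9. The difference in effect, 0.66 ± 0.17, passed the test (limma adjusted p 0.0279), but not without DMSO array 2 (adjusted p 0.0983), 1b (0.0837) or 2b (0.0716), nor without NS-398 array 1 (0.102), 1b (0.0728) or 2b (0.0680), by limma. It was also not called with no filter on low signals (limma adjusted p 0.0547) or no intensity trend (0.0576).

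Aldolase A, which cleaves the doubly phosphorylated fructose into its triose phosphates, showed the largest difference between the sets among the 9. Aldoa signals without the suffix were 9321 and 9108 under DMSO and 8727 and 8711 under NS-398, so that both NS-398 arrays lay below (-0.08 ± 0.04, limma adjusted p 0.262). With the suffix they were 8220.5 and 8204 under DMSO and 12962 and 13122 under NS-398 (0.66 ± 0.04, limma adjusted p 8.41e-08). The sets differed by 0.74 ± 0.06 (limma adjusted p 5.00e-06).

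Triose phosphate isomerase, which lets both products of the split sugar continue, rose to a like extent in both sets. Tpi1 signals were 7928 and 7812 under DMSO and 11029 and 12167 under NS-398 without the suffix, a rise of 0.55 ± 0.06 (limma adjusted p 1.41e-05). With the suffix they were 10000.2 and 10208 under DMSO and 15660.2 and 14672 under NS-398, a rise of 0.58 ± 0.06 (limma adjusted p 8.63e-06). The difference between the sets was 0.03, with a 95% confidence interval of -0.15 to 0.20, which leaves out the differences measured for Aldoa, Gpi, Pfkp and Ldha. Tpi1 was called in each set under every alternative run.

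Phosphoglycerate kinase, phosphoglycerate mutase and enolase were each called in the suffix-b set and not in the other. Pgk1, phosphoglycerate kinase, ranged from 8561 to 16798 over the 14 arrays and rose by 0.25 ± 0.06 with the suffix (limma adjusted p 0.0131), against 0.11 ± 0.06 without it (0.282). That call was lost without DMSO array 1b (limma adjusted p 0.0696), DMSO array 2b (0.0708) or NS-398 array 1b (0.137), after quantile normalization (0.310) and with no intensity trend (0.0962). A dimmer Pgk1 probe set was called in both sets, at 0.39 ± 0.06 with the suffix and 0.19 ± 0.06 without (limma adjusted p 3.13e-04 and 0.0438), and another never exceeded a signal of 28.9. Pgam1, phosphoglycerate mutase, ranged from 13775 to 18233 and rose by 0.33 ± 0.05 with the suffix (limma adjusted p 4.64e-04). Its change without the suffix, 0.16 ± 0.05, did not pass (adjusted p 0.0543), but it did without SC-560 array 1 or 2 (limma adjusted p 0.0273 each). Eno1, enolase, ranged from 6024 to 14790 and rose by 0.35 ± 0.06 with the suffix (limma adjusted p 7.26e-04), against 0.13 ± 0.06 without it (0.169). For Pgk1, Pgam1 and Eno1 the differences between the sets, 0.14, 0.17 and 0.22, did not pass the test (limma adjusted p 0.404, 0.192 and 0.127).

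Lactate dehydrogenase A, which reduces pyruvate to lactate, was called in the suffix-b set and not in the other, as Aldoa and Gpi were. Ldha signals without the suffix were 10571 and 9824 under DMSO and 10052 and 10454 under NS-398, an overlap (0.01 ± 0.05, limma adjusted p 0.939). With the suffix they were 10296 and 10794 under DMSO and 14996 and 15374 under NS-398, a rise of 0.52 ± 0.05 (limma adjusted p 5.35e-06). The sets differed by 0.52 ± 0.07 (limma adjusted p 4.52e-04).

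The shared probe set of Pkm and Pkm-ps20, where Pkm encodes pyruvate kinase, was called in both sets, as Tpi1 was. It was at 7715 and 7051 under DMSO and 10170.4 and 10650.1 under NS-398 without the suffix, and 10372 and 10118 against 13591 and 14201 with it. Both rises were called, 0.49 ± 0.05 and 0.44 ± 0.05 (limma adjusted p 1.81e-05 and 5.21e-05), and the difference between the sets was -0.06, with a 95% confidence interval of -0.22 to 0.10. Glyceraldehyde phosphate dehydrogenase, the step between Tpi1 and Pgk1, is read by a probe set shared by Gapdh and Gapdhl10, which rose by 0.22 ± 0.05 without the suffix and 0.15 ± 0.05 with it (limma adjusted p 0.00623 and 0.0399). The array's Gapdh control probe sets, which were not tested, had NS-398 to DMSO ratios of 1.10 to 1.14 in the set lacking the suffix and 1.19 to 1.20 in the other.

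**Figure D2:**
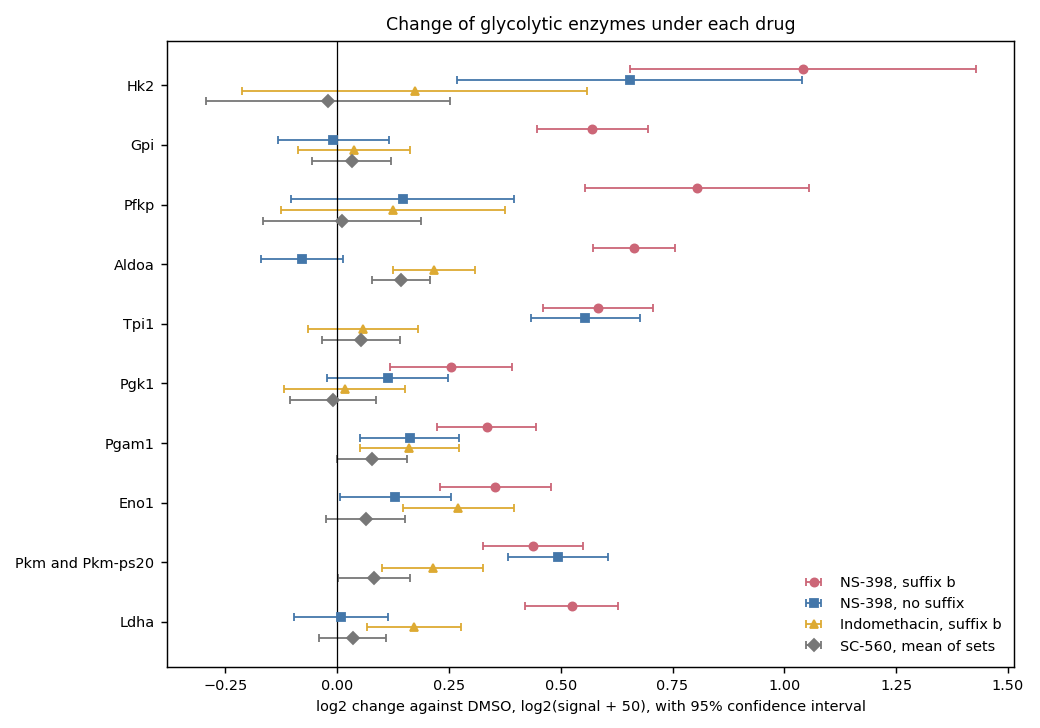
Log2 change against DMSO, on the scale of log2(signal + 50), with 95% confidence intervals from limma for 9 glycolytic enzymes and the probe set shared by Pkm and Pkm-ps20. Red circles are NS-398 in the suffix-b set, blue squares NS-398 in the set without suffix, yellow triangles indomethacin and grey diamonds SC-560; the red and blue intervals of Aldoa (0.66 and -0.08) lie far apart and those of Tpi1 (0.58 and 0.55) nearly coincide.

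Other measures moved with the label sets. Besides the actin 3'/5' ratio given above, summed marker signals on the DMSO arrays differed between the sets. The sum of 12 fibroblast and smooth muscle markers was mostly Vim, Col1a1, Col1a2 and Col3a1. It lay between 72854 and 74973 in the set lacking the suffix and between 91142 and 94398 in the other. That of 10 epithelial markers, mostly Krt8 and Cdh1, was 11362 to 11450 and 12813 to 13393. Under NS-398 the fibroblast sums ran over 68456 to 72549 and 91897 to 96807 in the same order, and the epithelial sum 10835 to 11290 and 13007 to 13970. The sum of 4 endothelial markers, mostly Tek, ran, again in that order, over 309 to 337 and 720.3 to 772 under DMSO, and over 341 to 434 and 708 to 724 under NS-398. The sum of 6 immune markers, mostly Cd14, was 3731 to 3919 and 3331 to 3613 under DMSO, and 4116 to 4194 and 3939 to 4073 under NS-398.

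Single markers changed under NS-398 in ways these sums do not show. Of 10 tested fibroblast and smooth muscle markers, 5 were called higher and 4 lower over both sets, and of 5 epithelial markers 0 and 1. The background was 10.0% of probe sets higher and 9.50% lower. In the suffix-b set the counts were 3 and 2 for the former list and 2 and 1 for the latter, against 7.71% and 6.99%. Tagln, a smooth muscle actin-binding protein, was at -1.62 ± 0.21 in that set, whereas Des, desmin, was at 0.69 ± 0.19 and Dcn, decorin, at 0.62 ± 0.13. Krt8 and Krt19, both keratins, were at -0.35 ± 0.05 and 0.70 ± 0.19 there, and Cdx2, an intestinal transcription factor, at 0.60 ± 0.16 (limma adjusted p 1.06e-04 to 0.0217 for all of these). Acta2, smooth muscle actin, was not called there (-0.23 ± 0.16, limma adjusted p 0.383), so the smooth muscle markers did not move together. The DMSO level of the enzymes also differed between the sets, from 0.891 times for Aldoa and 0.920 for Gpi to 1.81 times for Eno1 and 4.28 for Pfkp, with the suffix over without. The part of these marker and level differences in the effect of NS-398 was not tested.

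Indomethacin, at the same dose of 100 µM and measured in the suffix-b set only, raised 3 of 9 enzymes and lowered none. The background was 3.43% of probe sets called higher and 3.67% lower, and the median log2 change was 0.16 against -0.00 for all probe sets. Aldoa was at 9489.7 and 9613 against 8220.5 and 8204 under DMSO (0.22 ± 0.04, limma adjusted p 0.00605). Eno1 was at 13463 and 14002 against 11141 and 11612 (0.27 ± 0.06, limma adjusted p 0.0107), and Ldha at 11852 and 11913 against 10296 and 10794 (0.17 ± 0.05, limma adjusted p 0.0462). In these 3 genes both indomethacin arrays lay above both DMSO arrays, but so they did for Gpi, Pfkp and Pgam1, which were not called. The other 6 changes lay between 0.02 for Pgk1 and 0.17 for Hk2 and did not pass. The shared probe set of Pkm and Pkm-ps20 was higher by 0.21 ± 0.05 (limma adjusted p 0.0227), and that of Gapdh and Gapdhl10 changed by -0.01 (0.967).

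The indomethacin calls rested on few arrays. Without DMSO array 1b none of the 9 was called (limma adjusted p 0.0612 for Aldoa, 0.117 for Eno1 and 0.314 for Ldha), nor without indomethacin array 2b (0.0611, 0.0996 and 0.186). Ldha was also not called without DMSO array 2b (limma adjusted p 0.0769), indomethacin array 1b (0.157), any NS-398 array (0.0516 to 0.0580) or SC-560 array 1b or 2b (0.0517 and 0.0515), nor with the replicate block (0.0740), with no filter on low signals (0.108) or after quantile normalization (0.0633). Pgam1 was called without SC-560 array 1 or 2 (limma adjusted p 0.0392 and 0.0394). Without the intensity trend, with one set difference assumed for all groups, or with no term for the label set, the count of enzymes called was 0.

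Indomethacin and NS-398 were set against each other at 100 µM within the suffix-b set. Under indomethacin 8 of 9 enzymes were lower than under NS-398 and none higher, against 5.87% of probe sets lower and 4.11% higher, with a median difference of -0.45 against 0.01 for all probe sets. Hk2 differed by -0.87 ± 0.18, Pfkp by -0.68 ± 0.12, Gpi by -0.53 ± 0.06, Tpi1 by -0.53 ± 0.06, Aldoa by -0.45 ± 0.04 and Ldha by -0.35 ± 0.05 (limma adjusted p 9.70e-06 to 0.00637). Eno1 was the exception, at -0.08, with a 95% confidence interval of -0.21 to 0.04. Pgk1 (-0.24, limma adjusted p 0.0269) and Pgam1 (-0.17, 0.0461) were close to the threshold. Neither was called with no filter on low signals (limma adjusted p 0.0759 and 0.123), after quantile normalization (0.141 and 0.187) or with no intensity trend (0.143 and 0.218). With one set difference assumed for all groups 2 enzymes were called lower, and with no term for the label set 0. Without indomethacin array 1b, 5 enzymes were called, as Hk2 (limma adjusted p 0.0745), Pgk1 (0.207) and Pgam1 (0.199) were not. Hk2 was also not called without NS-398 array 2b (limma adjusted p 0.0945), nor Pgk1 without NS-398 array 1b (0.217). Pgam1 lost its call without any 1 of the 8 suffix-b arrays or NS-398 array 1 or 2 (limma adjusted p 0.0528 to 0.224), and with the replicate block (0.0655). Both drugs' changes against DMSO were computed from the same DMSO arrays.

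Under SC-560 at 1 µM none of the 9 enzymes was called in either direction by limma. Of all probe sets 0.0685% were called higher and 0.0228% lower, that is 12 and 4. At an unadjusted p under 0.05, 1768 probe sets passed by limma, among them 1 of the 9 enzymes. The median log2 change of the 9 was 0.03 against 0.01 for all probe sets, and the changes ran from -0.02 to 0.14. Aldoa had the largest, 0.14 ± 0.03 (limma adjusted p 0.0963), at 10258 and 10172 against 9321 and 9108 without the suffix and 9029 and 9043 against 8220.5 and 8204 with it. Both SC-560 arrays of Aldoa thus lay above the DMSO arrays in each set. Those of Gpi lay above the DMSO arrays without the suffix and below them with it, at 1.08 and 0.972 times the DMSO mean. Tpi1 was at 1.09 and 0.985 times in the same order. The mean of the sets does not show such opposite directions, and SC-560 was not tested within each set. For Ldha the change was 0.03 (95% confidence interval -0.04 to 0.11), and for Hk2 -0.02 (-0.29 to 0.25). Because SC-560 was used at a lower dose than the other drugs, its values stand beside theirs without a comparison.

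Genes that supply and branch from the pathway were counted from lists. The background for the counts over both sets is the 10.0% of all probe sets called higher and 9.50% called lower given above. Of 12 tested genes for other isoforms and steps of glycolysis, 4 rose and 1 fell under NS-398 averaged over the sets, with a median of 0.10. Bpgm, which makes bisphosphoglycerate, rose by 0.41 ± 0.06, Pfkl, the liver-type phosphofructokinase, by 0.39 ± 0.10, and Eno2, the neuronal enolase, by 0.30 ± 0.07, whereas Eno3, the muscle enolase, fell (-0.63 ± 0.09; limma adjusted p 1.03e-04 to 0.0101 for the 4). The remaining rise was that of Ldhb, lactate dehydrogenase B (0.32 ± 0.10, limma adjusted p 0.0256), named after its value was seen. The effect on both enolases differed between the sets, by 0.94 ± 0.14 for Eno2 and -1.15 ± 0.17 for Eno3 (limma adjusted p 9.63e-04 and 0.00113). Eno3 was thus lowered in the suffix-b set (-1.21 ± 0.12, limma adjusted p 1.14e-05) in which Eno1 and Eno2 were raised. Under indomethacin 1 of the 12 rose and none fell, against 3.43% and 3.67% of all probe sets. That gene was Bpgm, at 0.58 ± 0.08 (limma adjusted p 4.79e-04), and NS-398 in the same set also gave 0.58 ± 0.08 (2.08e-04).

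Of 9 transport genes tested, 3 rose under NS-398 over both sets and none fell. Slc2a1, the glucose transporter GLUT1, rose by 0.45 ± 0.06 (limma adjusted p 1.36e-04), by 0.39 ± 0.09 without the suffix and 0.50 ± 0.09 with it. Slc16a1, which carries lactate and pyruvate, rose by 0.74 ± 0.07 with the suffix (limma adjusted p 6.01e-06) but was at -0.19 ± 0.07 without it (0.0910), a difference of 0.93 ± 0.10 (7.20e-05). Emb, embigin, a chaperone of such carriers, rose by 0.54 ± 0.11 over both sets (limma adjusted p 0.00205). Bsg, basigin, its relative, differed between the sets by 0.26 ± 0.06 (limma adjusted p 0.0169). Under indomethacin 2 of the 9 rose and none fell, against 3.43% and 3.67% of all probe sets. They were Emb (0.66 ± 0.15, limma adjusted p 0.0148) and Slc16a1 (0.39 ± 0.07, 0.00319), and the count was 0 without DMSO array 1b.

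Storage and oxidation were also counted. Among 11 tested genes of the glycogen and glycerol branches, 4 rose and none fell over both sets, led by Ugp2, which makes UDP-glucose (0.35 ± 0.06, limma adjusted p 5.11e-04), and Gyg1, the glycogen primer (0.28 ± 0.06, 0.00209), with Pgm1 (0.28 ± 0.07, 0.0158) and Pygm (0.71 ± 0.21, 0.0247). Pygm was dim, with a mean signal of 65.5, and its change in the suffix-b set was 0.23 ± 0.29 (limma adjusted p 0.674). The effect on Ugp2 and Pgm2 differed between the sets, by 0.72 ± 0.12 and 0.43 ± 0.11 (limma adjusted p 0.00174 and 0.0289). The count of rises was 2 without DMSO array 2b, NS-398 array 2 or NS-398 array 2b. Among 16 tested genes of the tricarboxylic acid cycle, 0 rose and 1 fell, Sdhd, a subunit of succinate dehydrogenase (-0.17 ± 0.04, limma adjusted p 0.0135), which was not called without NS-398 array 2b. The median of that list was -0.06. Of 4 tested gluconeogenic genes 2 fell, Pck2 (-0.38 ± 0.07) and G6pc3 (-0.29 ± 0.07; limma adjusted p 0.00148 and 0.0106), and without NS-398 array 2 the count was 1. Under indomethacin 1 of the 11 genes of the glycogen and glycerol branches rose and none fell, against 3.43% and 3.67% of all probe sets. It was Ugp2 (0.36 ± 0.08, limma adjusted p 0.0133), and the count was 0 without DMSO array 1b.

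Of 12 tested genes that govern the entry of pyruvate into mitochondria, 3 rose and 2 fell under NS-398 over both sets. Pdk4, a kinase that inhibits pyruvate dehydrogenase, rose by 0.75 ± 0.18 (limma adjusted p 0.00699), and Dld, a subunit of that complex, fell (-0.20 ± 0.06, 0.0204), as did Pdk2 (-0.38 ± 0.12, 0.0321). The other rises were Pdp1 (0.15 ± 0.05, limma adjusted p 0.0416) and Pdk1 (0.24 ± 0.08, 0.0439), respectively a phosphatase and a kinase of the complex, of which Pdk1 was named after its value was seen. Pdk3, another such kinase, differed between the sets by 0.50 ± 0.14 (limma adjusted p 0.0457) and was not called in either. The rises numbered 1 without any 1 of DMSO arrays 1, 2 and 2b or NS-398 arrays 1, 2 and 1b, and 0 without NS-398 array 2b. The falls numbered 0 without DMSO array 1 or 1b or NS-398 array 2 or 2b, and 1 without DMSO array 2 or 2b or NS-398 array 1.

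Of 18 tested genes of the hypoxia response outside glycolysis, 11 rose and 1 fell under NS-398 over both sets, against 10.0% and 9.50% of all probe sets, with a median of 0.45 against -0.01. The fall was that of Bnip3l (-0.19 ± 0.06, limma adjusted p 0.0247), named after its value was seen, which was not called without DMSO array 2 or 1b or NS-398 array 2 or 2b. Vegfa, the vascular growth factor, rose by 1.02 ± 0.06, Ddit4, an inhibitor of mTORC1 signalling, by 0.87 ± 0.05, Car9, a carbonic anhydrase, by 0.58 ± 0.04, and Hmox1, heme oxygenase, by 1.20 ± 0.10 (limma adjusted p 1.10e-08 to 9.34e-07). By label set, 16 of 18 rose and none fell with the suffix (background 7.71% and 6.99%), and 9 rose and 3 fell without it (6.13% and 5.81%). The 3 falls were Bnip3l (-0.33), P4ha2 (-0.39) and Egln3 (-0.45), named after their values were seen, and the count was 1 without DMSO array 2. The difference between the sets passed for 8 of 18, all larger with the suffix, against 3.23% of all probe sets, and for 5 without DMSO array 1b. Egln3, a prolyl hydroxylase that marks hypoxia-inducible factor for degradation, was among them, at -0.45 ± 0.09 without the suffix and 0.28 ± 0.09 with it, a difference of 0.73 ± 0.12 (limma adjusted p 0.00250), as was P4ha1, a collagen prolyl hydroxylase, which differed by 0.63 ± 0.11 (0.00289).

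Under indomethacin 6 of those 18 genes rose and none fell, against 3.43% and 3.67% of all probe sets, with a median of 0.21. That count fell to 0 when DMSO array 1b was left out, and to 2 or 1 when indomethacin array 1b or 2b was. Vegfa rose by 0.43 ± 0.08 (limma adjusted p 0.00476). Under SC-560 none of the 18 was called by limma.

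Of 13 tested regulators of glycolytic genes, 2 rose under NS-398 over both sets, Hif1a and Myc, a share near the 10.0% of all probe sets called higher, and the median of the 13 was 0.03. Hif1a, the hypoxia-inducible subunit, rose by 0.31 ± 0.04 (limma adjusted p 5.06e-05), by 0.11 ± 0.06 without the suffix (0.215) and 0.50 ± 0.06 with it (2.28e-05), and the sets differed by 0.39 ± 0.08 (0.00762). Myc rose by 0.35 ± 0.06 over both sets (limma adjusted p 6.39e-04). It was at 0.55 ± 0.08 without the suffix (limma adjusted p 5.27e-04) and 0.15 ± 0.08 with it (0.258), but that difference did not pass (-0.39 ± 0.12, adjusted p 0.0609). Mycn, a relative of Myc, was at -0.35 ± 0.11 without the suffix (limma adjusted p 0.0502) and 0.35 ± 0.11 with it (0.0439), and its difference passed (0.69 ± 0.16, 0.0141).

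**Figure D3:**
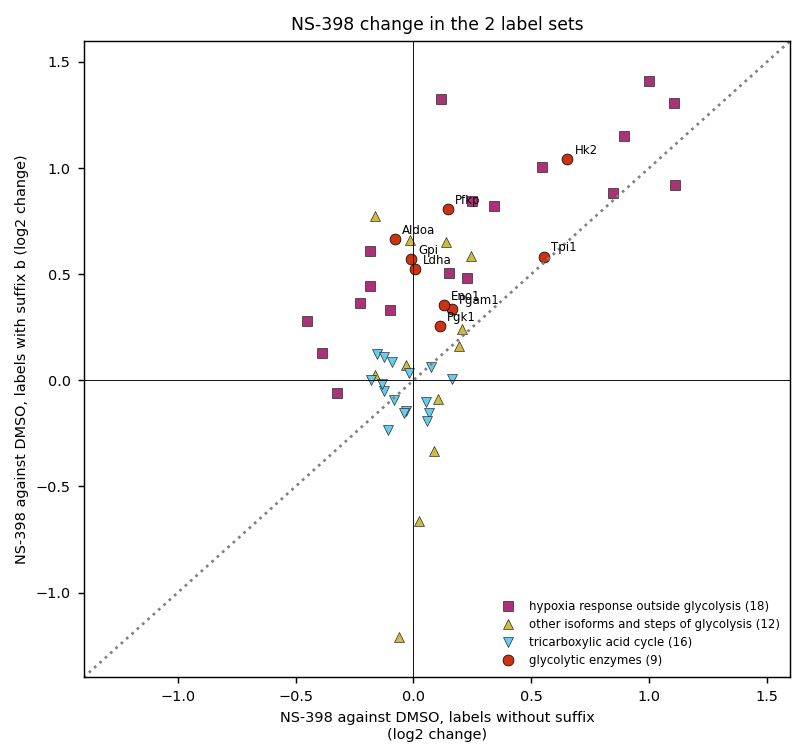
Log2 change under NS-398 against DMSO in the set without suffix (horizontal) and in the suffix-b set (vertical); each point is 1 gene of 9 glycolytic enzymes (labelled), 18 hypoxia-response genes outside glycolysis, 12 other genes of glycolysis or 16 tricarboxylic acid cycle genes. On the dotted line both changes are equal; all 9 enzymes lie above it, Tpi1 by the least (0.03), and the tricarboxylic acid cycle genes lie around 0.

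The enzymes varied together across the arrays. After removal of each label set's mean, each enzyme correlated with the mean of the others at a Pearson r of 0.79 (Pgk1) to 0.93 (Pfkp) over 14 arrays, which include the same treatment groups for every gene. Averaged over the 9 enzymes, the deviation in log2 from the set's mean was 0.37 and 0.40 on the suffix-b NS-398 arrays and 0.05 and 0.16 on those without the suffix. The DMSO arrays lay at -0.22 and -0.15 with the suffix and at -0.06 and -0.10 without it. Indomethacin arrays, at -0.08 and -0.02, lay between the DMSO and NS-398 arrays of the same set.

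Among the 9839 named genes, the 5 whose pattern was most like that mean were Car9 (r 0.99), Errfi1, an inhibitor of EGF receptor signalling (0.98), Higd1a, a mitochondrial protein induced by hypoxia (0.97), Wfdc1 (0.97) and Dnpep, an aspartyl aminopeptidase (0.97). Car9 signals were 1535 and 1482 under DMSO and 1888 and 1958 under NS-398 without the suffix, and 4411 and 4825 against 8238 and 8138 with it. Under indomethacin they were 5472 and 5554. Hif1a stood at rank 7 (r 0.96).

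**Figure D4:**
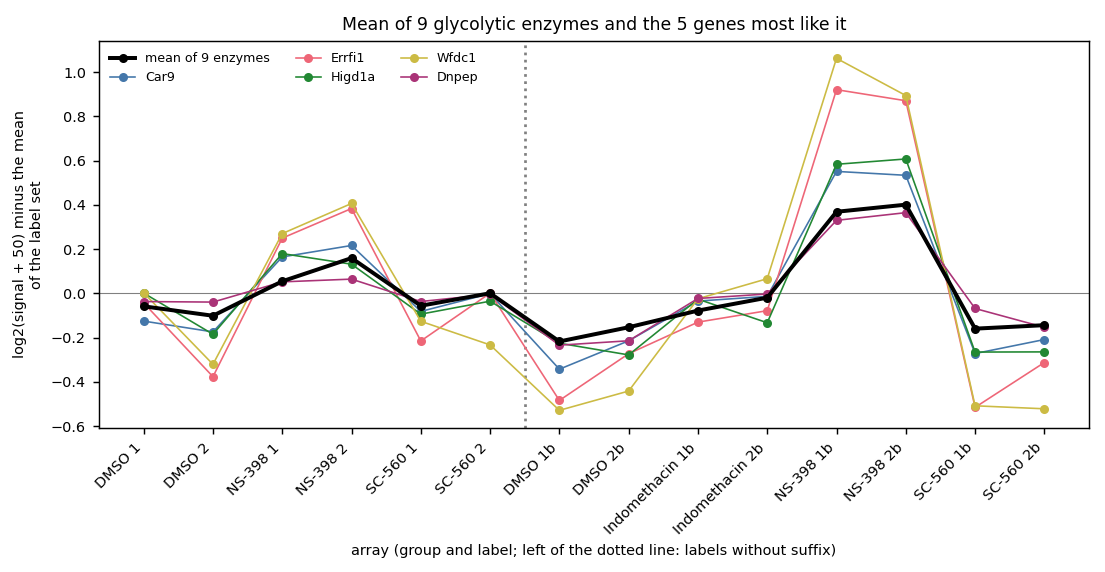
Deviation of log2(signal + 50) from the mean of the label set on each of the 14 arrays, for the mean of 9 glycolytic enzymes (thick black line) and for the 5 named genes most correlated with it. All 6 lines are highest on the suffix-b NS-398 arrays, where the enzymes' mean is 0.37 and 0.40.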

How the data were processed

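Total RNA was labelled after 2 rounds of in vitro transcription and hybridised to one-colour Affymetrix arrays, per the labels' protocols. The authors deposited linear signal intensity values for 31099 probe sets per array, scaled to a target signal of 500 per the labels; the mean of each array without its top and bottom 2% was 500.0. The software that summarised probes is not given in the sources used here, and no further normalization was added. The number of arrays limits the precision.

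Gene names came from the platform annotation, updated through a RefSeq table: 20832 had 1 symbol, 436 several and 9831 were not listed. Without the 57 control probe sets, 17515 that reached a signal of 100 on at least 2 arrays were tested. Values were fitted as log2(signal + 50) with limma 3.58.1 in R 4.3.3: 7 means, 1 per group and label set, with 7 residual degrees of freedom and an intensity trend in the moderation. Adjusted p-values are Benjamini-Hochberg values over all probe sets tested, a call is an adjusted p under 0.05, ± on a log2 change is the standard error, and fold changes are on the same scale. The fit was run on simulated data with independent noise for each probe set and array, so that run says nothing about technical replication. NS-398 was compared with DMSO within each label set and as their mean, SC-560 as the mean of the sets, and indomethacin within the suffix-b set.

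Named were all members, up to 4 called genes of each list with the smallest adjusted p for NS-398 over both sets and up to 2 for the difference between sets, Slc2a1, Vegfa, Hif1a, Gapdh and the 5 most correlated genes; Ldhb, Pdk1, Bnip3l, P4ha2 and the single markers were named after their values were seen. The members, lists and tests were chosen with earlier results of these data known. Shared labels did not pair the arrays: after removal of the 7 means, arrays with the same label in different groups correlated at -0.08 to 0.06 over 9 pairs. No 2 arrays held identical values. Alternatives covered the pseudocount, filter, normalization, trend, model, pairing, choice of probe set and single arrays; counting the shared probe set as Pkm, which added 1 call each for indomethacin, NS-398 (both sets, each set) and indomethacin against NS-398, was chosen after the data were seen.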

Additional observations from a re-analysis of the deposited data

Results flagged for a closer look

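For 4 enzymes the effect of NS-398 differed between the label sets by the interaction test in limma. The log2 change in the suffix-b set exceeded that in the set without the suffix by 0.74 for Aldoa, 0.58 for Gpi, 0.52 for Ldha and 0.66 for Pfkp, 2 arrays per group and set. The label sets also differ in actin 3'/5' ratio, in marker levels and in their DMSO levels, and the part of these in the difference was not tested. Dixon's criterion for a single outlying array flagged 0 of 33 groups of 4 arrays. Each group held 2 arrays of each label set, so that a difference between the sets widens its range and the criterion could hardly be met, and the 2 indomethacin arrays were not looked at, so this count says nothing about single arrays.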

How the results depend on the processing

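Under the 22 alternatives run for NS-398 in the suffix-b set, 8 of 9 enzymes were called every time, all but Pgk1. The differences between the sets for Aldoa, Gpi and Ldha were called under all 21. Calls fell for NS-398 without the suffix from 2 to 1 with no filter on low signals and with no intensity trend. For indomethacin they fell from 3 to 0 with no trend, in the additive model (group plus label set) and with no label set term. With no label set term, the NS-398 count over both sets fell from 9 to 1 and that of indomethacin below NS-398 from 8 to 0 (2 in the additive model). Leaving out 1 array gave 0 to 4 enzymes called higher for indomethacin, 8 to 9 for NS-398 over both sets and with the suffix, 1 to 3 without it, 3 to 4 for the difference between sets, and 5 to 8 lower for indomethacin against NS-398. An arm left with 1 array is assumed to vary like the other groups.

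Directions that changed were of small, uncalled values except with no label set term, where indomethacin against NS-398 became 0.58 for Pfkp, 0.10 for Pgk1 and 0.46 for Eno1. That model sets indomethacin arrays, all with the suffix, against NS-398 arrays of both sets, so level differences between the sets enter its contrast. The DMSO means of Pfkp, Pgk1 and Eno1 were 4.28, 1.44 and 1.81 times as high with the suffix as without. The part of these levels in each change was not tested. After quantile normalization, Pgk1 under indomethacin was -0.047, Ldha under NS-398 without the suffix -0.0095, the set differences of Tpi1 and Pgk1 -0.036 and -0.0033, and Eno1 in indomethacin against NS-398 0.0040. Gpi under indomethacin was -0.035 in the additive model, where Pgk1 was -0.014, and -0.022 with no label set term. With 1 array left out, ranges that crossed 0 were Tpi1 (-0.0015 to 0.12) and Pgk1 (-0.036 to 0.0702) under indomethacin, Gpi (-0.0702 to 0.053) and Ldha (-0.044 to 0.061) under NS-398 without the suffix, the set difference of Tpi1 (-0.042 to 0.099), and Hk2 (-0.105 to 0.062), Pfkp (-0.077 to 0.0998) and Pgk1 (-0.051 to 0.033) under SC-560. With the replicate block 9 enzymes were called for NS-398 over both sets and with the suffix, 2 without it and 4 for the difference; Ldha under indomethacin (limma adjusted p 0.0740) and Pgam1 in indomethacin against NS-398 (0.0655) lost their calls, and no other member's call changed.

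Over all probe sets, calls with 1 array left out ranged from 305 to 1409 for indomethacin (1243 with all), 830 to 2300 for NS-398 without the suffix (2091), 1152 to 2763 with it (2574), 506 to 1212 for the difference (1066), 788 to 1920 for indomethacin against NS-398 (1749) and 0 to 105 for SC-560 (16). With no filter the indomethacin count was 778, that of the difference 699 and that of SC-560 0. With no trend these 3 were 566, 512 and 3, NS-398 without the suffix 1393 and indomethacin against NS-398 1057. The additive model gave 572 for indomethacin, 954 for indomethacin against NS-398 and 0 for SC-560; no label set term gave 2, 15 and 0, and 111 for NS-398 over both sets (3420). SC-560 had 7 after quantile normalization and 4 with the replicate block.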
